A study of Homo sapiens with 6 samples.

Results

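The genes of the proteasome were examined in A549 cells, a human lung carcinoma cell line, with and without forced expression of the cytokine IL17D. The set was taken by name, as every protein-coding gene in the deposited table whose symbol is PSMA, PSMB, PSMC, PSMD, PSME, PSMF or PSMG followed by a number, which gave 48 of 58735 genes. A549 cells carrying a lentiviral vector with IL17D (IL17D, 3 libraries) were compared with A549 cells carrying the empty vector (control, 3 libraries), both grown in RPMI1640 medium with fetal bovine serum. Vector and serum were thus shared by both groups, and the comparison asks what IL17D changed in the cancer cell itself. The sources do not say whether replicate libraries derive from separately transduced or separately cultured cells, so p-values measure only the spread between these libraries, which may be technical.

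The proteasome is the chamber in which cells break down proteins that carry ubiquitin. Its barrel-shaped core, the 20S particle, is built of rings of alpha subunits (PSMA) around rings of beta subunits (PSMB), of which only a few cut peptide bonds, and the 19S cap with its ATPases (PSMC) and non-ATPase subunits (PSMD) recognises, unfolds and feeds in the substrate. Interferon-gamma makes cells replace the standard catalytic subunits by the immunoproteasome subunits PSMB8, PSMB9 and PSMB10, and add the PA28 activator (PSME1 and PSME2), a form known for making peptides for MHC class I.

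Counts on genes totalled between 14319398 and 16521021 per library. IL17D itself had 24, 18 and 34 counts in the control libraries and 31274, 32155 and 26772 in the IL17D libraries, so every library matched its label. Values are given as CPM (edgeR's cpm, counts relative to a library's total after TMM scaling), and the limit set by a count of 0 was taken as 3 counts, or 0.182 to 0.210 CPM depending on the library, for counting error only. The keratin KRT8 stood at 7201 to 7779 CPM in the 6 libraries and CDKN2A, which is deleted in A549, had no count in any. Of the other epithelial markers, KRT18 stood at 3504 to 3717 CPM and CDH1 at 32.4 to 46.2 CPM. EPCAM reached only 1.31 CPM and KRT19 only 0.669 CPM. Summed over 4 leukocyte markers the level was at most 0.249 CPM, with PTPRC and CD3E at 0 in all libraries. Summed over 4 fibroblast markers it was 22.6 to 25.0 CPM in control and 19.5 to 23.9 CPM in IL17D libraries. Most of this was COL1A1, at 19.2 to 24.2 CPM.

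Proteasome transcripts were abundant and almost level between the groups. All 48 genes together took 5732, 5642 and 5630 CPM in the control libraries and 5590, 5569 and 5641 CPM in the IL17D libraries, a change of −1.20%. The 2 ranges overlapped. Of the 48 genes, 46 had enough counts to be tested, and edgeR's quasi-likelihood test, Benjamini-Hochberg adjusted over 15754 genes, called 0 of them higher and 0 lower at an adjusted p under 0.05. Among all tested genes 1.58% were called, 0.673% higher and 0.908% lower. DESeq2 and limma voom, where 1.24% and 1.46% of all genes were called, also called 0 of the 46. However, DESeq2 gave no adjusted p for PSMB10 and PSMA6, so that it could not call them. At an unadjusted p under 0.05 edgeR had 4 of the 46 genes, PSMD6 higher and PSMD10, PSME2 and PSMB6 lower, where 11.6% of all tested genes passed (5.59% higher and 5.99% lower). DESeq2 and limma voom each had 4 as well, where 7.69% and 11.6% of all genes passed.

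The sizes of the differences were small throughout. A log2 fold change is given as IL17D minus control. It ranged over the 46 genes from −0.18 (PSMB8) to 0.22 (PSMA6), with a median of −0.024, beside −0.00044 over all tested genes. It was below 0 in 28 genes (60.9%) and above 0 in 18, while 50.1% of all tested genes were below 0. Of the 37 genes with a mean of at least 500 counts 26 were below 0 (70.3%), beside 47.5% of all genes at that level, a count of signs that was not tested. The median size without its sign was 0.048 in the proteasome genes and 0.084 in all genes, but 0.043 against 0.048 when only genes with a mean of at least 500 counts were taken (37 of the 46). Of these 37 genes 0 were called and 4 had an unadjusted p under 0.05, where 2.98% and 15.6% of all genes at that level did. The 95% interval of the log2 fold change lay within ±0.2 for 35 of the 46 genes and within ±0.3 for 40. The 3 control and 3 IL17D libraries did not overlap in 11 genes, 9 lower and 2 higher, where 15.8% of all tested genes had no overlap (8.31% lower and 7.48% higher).

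**Figure D1:**
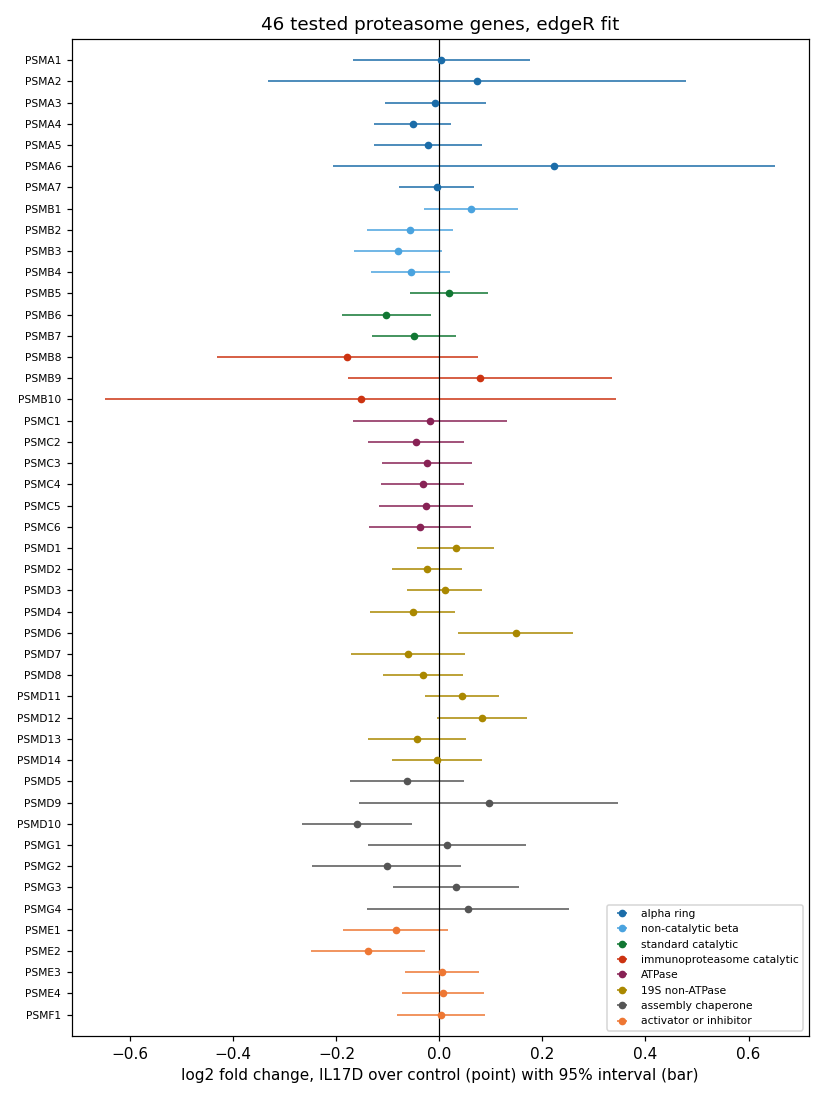
Log2 fold change (IL17D minus control) of the 46 tested proteasome genes by role, with points for the estimate and bars for the 95% interval. The estimates run from −0.18 to 0.22, and the widest bars belong to the genes with the fewest counts.

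The alpha ring, whose subunits form the gate of the core, held 7 tested genes, 4 below 0 and 3 above, whose median log2 fold change was −0.0051. PSMA8, an alpha subunit known from the testis, had 0 counts in all 6 libraries and was not tested. PSMA4 had the largest negative value, at 237, 243 and 250 CPM in control and 227, 241 and 238 CPM in IL17D libraries (log2 fold change −0.052, edgeR adjusted p = 0.661). The groups overlapped. PSMA6 had the largest positive value of the whole set, at 2.83, 3.66 and 3.42 CPM in control and 3.77, 3.47 and 4.34 CPM in IL17D libraries. Its log2 fold change of 0.22 had a 95% interval from −0.21 to 0.65 (edgeR adjusted p = 0.764), since only 46 to 62 counts lay behind each value.

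The non-catalytic beta subunits PSMB1 to PSMB4, which complete the beta rings without an active site, had a median log2 fold change of −0.056. PSMB3 was at 146, 141 and 141 CPM in control and 139, 130 and 136 CPM in IL17D libraries. No IL17D library reached the lowest control library, yet the difference did not pass the test (log2 fold change −0.080, edgeR adjusted p = 0.480). PSMB1, the only one of these genes with a positive value, had a log2 fold change of 0.062 (edgeR adjusted p = 0.672).

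Among the standard catalytic subunits, PSMB5 carries the chymotrypsin-like activity that bortezomib blocks. It was at 194, 199 and 193 CPM in control and 199, 198 and 197 CPM in IL17D libraries. The groups overlapped, and the 95% interval of its log2 fold change of 0.018 ran from −0.057 to 0.094. PSMB6, the caspase-like subunit, was at 143, 139 and 132 CPM in control and 129, 129 and 127 CPM in IL17D libraries. All 3 IL17D libraries lay below all 3 control libraries, with a log2 fold change of −0.10 (95% interval −0.19 to −0.017, unadjusted p = 0.021, edgeR adjusted p = 0.313 and 0.15 to 0.629 over the alternative analyses). PSMB7, the trypsin-like subunit, had 159 ± 1.10 CPM (SD, n = 3) in control and 153 ± 4.59 CPM (SD, n = 3) in IL17D libraries, which overlapped (log2 fold change −0.050, edgeR adjusted p = 0.705).

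The immunoproteasome subunits were expressed at a low level in both groups. PSMB8, the counterpart of PSMB5, was at 10.2, 10.7 and 10.0 CPM in control and 8.51, 9.12 and 9.67 CPM in IL17D libraries. The groups did not overlap, but the log2 fold change of −0.18 had a 95% interval from −0.43 to 0.074 and did not pass the test (edgeR adjusted p = 0.652). The antisense gene PSMB8-AS1, with 2 to 6 counts per library, covers 14.02% of the coding bases of PSMB8 on the opposite strand. PSMB8 and PSMB9 also share 139 exon bases on opposite strands, 4.64% of the exon bases of PSMB8 and none of its coding bases. Since the strand setting of the count is not given in the sources used here, reads of either pair cannot be told apart there. PSMB9, the counterpart of PSMB6, was at 9.42, 10.6 and 8.52 CPM in control and 10.3, 9.97 and 9.74 CPM in IL17D libraries, which overlapped. Its log2 fold change was 0.080 (95% interval −0.18 to 0.34, edgeR adjusted p = 0.880), and 0.0070 without control replicate 3 or 0.16 without control replicate 2. PSMB10, the counterpart of PSMB7, was at 3.02, 3.04 and 2.74 CPM in control and 3.16, 1.89 and 2.87 CPM in IL17D libraries. One IL17D library lay below the rest, and the log2 fold change of −0.15 (95% interval −0.65 to 0.34, edgeR adjusted p = 0.882) became 0.045 without IL17D replicate 2. PSMB11, the catalytic subunit of the thymus form, had 1, 2 and 0 counts in control and 0, 0 and 1 counts in IL17D libraries, at or under the limit of 3 counts in each, and was not tested.

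**Figure D2:**
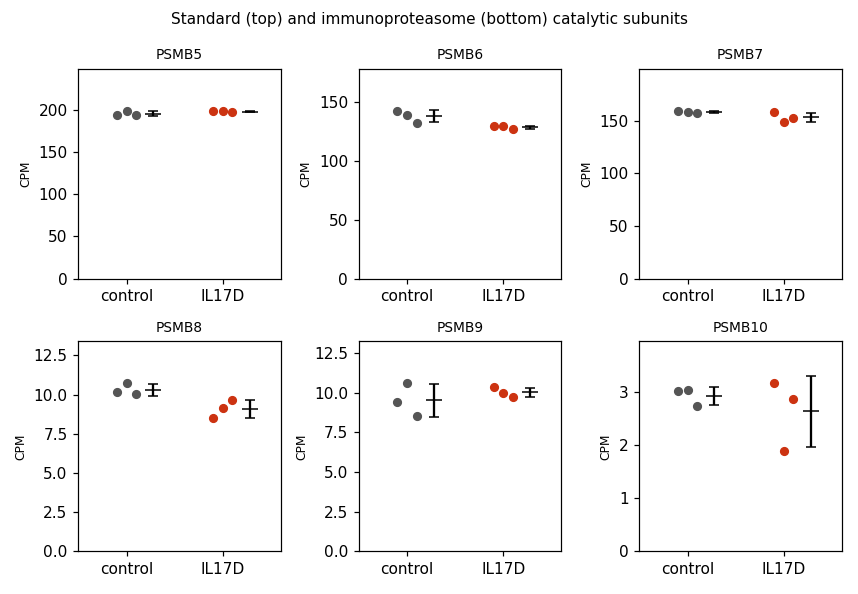
CPM of the standard catalytic subunits PSMB5, PSMB6 and PSMB7 and of the immunoproteasome subunits PSMB8, PSMB9 and PSMB10 in each library, with mean and SD of 3 libraries beside the points and all axes starting at 0. The groups are apart in PSMB6 and PSMB8 and overlap in the other 4 genes.

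To set the catalytic subunits side by side, levels were divided by gene length (CPM per kilobase of the deposited gene length). On this scale PSMB8, PSMB9 and PSMB10 made up 2.64%, 2.83% and 2.56% of the summed level of the 6 catalytic subunits in control libraries and 2.65%, 2.50% and 2.72% in IL17D libraries. The groups overlapped, and the mean share was 2.68 ± 0.139% (SD, n = 3) in control and 2.62 ± 0.112% (SD, n = 3) in IL17D libraries. The difference of −0.052 percentage points became 0.024 without control replicate 2, 0.0092 without IL17D replicate 2 and −0.11 without control replicate 3, so its direction rests on single libraries. The level of PSMB8 was 3.10 ± 0.0638% of that of PSMB5 in control and 2.71 ± 0.188% in IL17D libraries (SD, n = 3). PSMB9 relative to PSMB6 went the other way, with 3.25 ± 0.30% in control and 3.68 ± 0.0788% in IL17D libraries (SD, n = 3). Each of these 2 ratios had no overlap between the groups, and in both the standard subunit's own small difference enters the ratio. They were not tested. PSMB10 stood at 1.78 ± 0.0940% of PSMB7 in control and 1.65 ± 0.381% in IL17D libraries (SD, n = 3), which overlapped. The size of these shares and ratios depends on the length used. By CPM, without division by length, the share was 4.41 ± 0.235% in control and 4.34 ± 0.129% in IL17D libraries (SD, n = 3), which overlapped. Per kilobase of coding bases, PSMB8, PSMB9 and PSMB10 stood at 10.1, 14.9 and 3.31 CPM (mean of both groups). PSMB5, PSMB6 and PSMB7 stood at 216, 181 and 164 CPM on that scale.

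Stretches before the start sites of interferon-inducible members are shown so that the letters searched for can be read in PSMB8, PSMB10 and PSME2, and with them the stretch of PSMB9, where only the antioxidant letters were found. PSME1 also held only the antioxidant letters and is not shown. The stretches come from RefSeq on GRCh38.p14 and are written 5′ to 3′ on the gene's strand, with the matched letters in capitals. Those of PSMB8, PSMB10 and PSME2 lie inside the annotated genes, whose 5′ ends are at chr6:32844703, chr16:67937087 and chr14:24147570. The letters searched on both strands of the 250 bases before each start were GAAANNGAA (core of the interferon-stimulated response element), TTCNNNGAA (gamma-activated site) and TGACNNNGC (core of the antioxidant response element). The PSMB8 stretch, chr6:32844094-32844122 on the minus strand, holds a gamma-activated site 65 bases before the start.
PSMB8: aactgtccttTTCTCGGAAaaggcagggg
The PSMB10 stretch, chr16:67936853-67936881 on the minus strand, holds the interferon-stimulated core 21 bases before the start.
PSMB10: gggtaaaggcGAAAGCGAAagcaggaagt
In PSME2 the interferon-stimulated core lies 28 bases before the start in chr14:24146620-24146648 and the antioxidant core 175 bases before it in chr14:24146767-24146795, both on the minus strand.
PSME2, interferon core: cctggggagtGAAAGCGAAagcccgggcg
PSME2, antioxidant core: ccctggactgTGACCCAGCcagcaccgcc
A start of PSMB9 lies back to back with TAP1, the peptide transporter of the MHC class I pathway. The annotated PSMB9 gene begins further upstream, at chr6:32844136, so that it spans TAP1. The stretch shown is the 169 bases between TAP1 and a later PSMB9 exon of GENCODE 29, chr6:32853979-32854147 on the plus strand. It holds the antioxidant core on the opposite strand. The core lies 148 bases before the RefSeq start of PSMB9, which falls inside that GENCODE exon, and the 250 bases before this start hold neither of the interferon letters.
PSMB9: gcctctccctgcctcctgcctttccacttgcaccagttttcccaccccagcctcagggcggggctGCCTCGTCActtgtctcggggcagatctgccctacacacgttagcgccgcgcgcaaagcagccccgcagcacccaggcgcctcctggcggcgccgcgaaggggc

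Of the 48 genes, 42 had a promoter in the RefSeq table, with 51 windows. The interferon-stimulated core was in 5 windows (9.80%, beside 6.88% of all 35116 promoter windows), the gamma-activated site in 7 (13.7%, beside 6.57%) and the antioxidant core in 13 (25.5%, beside 10.9%). A match of letters is a description and not a bound site. The tested genes with the antioxidant core had a median log2 fold change of −0.026 (13 genes) and those without −0.023 (27 genes). For the interferon-stimulated core the medians were −0.056 (5 genes) and −0.019 (35 genes), and for the gamma-activated site they were 0.0076 (6 genes) and −0.025 (34 genes). These differences were not tested.

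The ATPases of the 19S cap, the ring that unfolds the substrate, were all below 0 with all libraries, with log2 fold changes between −0.046 and −0.019 in PSMC1 to PSMC6. With single libraries left out, 4 of 6 were below 0 without control replicate 1 and 6 of 6 without control replicate 3. Without control replicate 2 or any one IL17D library, 5 of 6 were. PSMC2 had the largest difference, at 98.2, 101 and 99.7 CPM in control and 97.7, 93.8 and 97.8 CPM in IL17D libraries. The groups were just apart, and the test was not passed (log2 fold change −0.046, edgeR adjusted p = 0.778). Summed over the 6 ATPases the level was 750 ± 12.6 CPM in control and 734 ± 10.5 CPM in IL17D libraries (SD, n = 3).

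The 11 non-ATPase subunits of the cap that were in the set by name had a median log2 fold change of −0.0049. Such subunits bind ubiquitin, remove it or hold the cap together. PSMD6, a scaffold subunit of the lid, was at 66.5, 65.0 and 71.5 CPM in control and 76.8, 70.6 and 77.7 CPM in IL17D libraries. It had higher values in IL17D libraries, although the lowest of these lay under the highest control library. The log2 fold change was 0.15 (95% interval 0.037 to 0.26, unadjusted p = 0.0106, edgeR adjusted p = 0.230), and the adjusted p ranged from 0.0958 to 0.545 over the alternative analyses. PSMD7, the partner of the deubiquitinase PSMD14, had the largest negative value (log2 fold change −0.062, edgeR adjusted p = 0.739). The summed level of the 11 subunits was 1936 ± 12.3 CPM in control and 1944 ± 14.1 CPM in IL17D libraries (SD, n = 3).

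The assembly chaperones, which help build the core (PSMG1 to PSMG4) or the base of the cap (PSMD5, PSMD9 and PSMD10) and are not part of the finished particle, included the smallest p of the whole set. PSMD10, also called gankyrin, was at 69.6, 69.3 and 70.9 CPM in control and 63.2, 63.3 and 61.1 CPM in IL17D libraries. All 3 IL17D libraries lay below all 3 control libraries by more than the spread within either group. The log2 fold change was −0.16 (95% interval −0.27 to −0.054, unadjusted p = 0.00442), and the edgeR adjusted p of 0.146 ranged from 0.131 to 0.415 over the alternative analyses. Of its transcript's 31-base stretches 9.48% also occur in other genes, 3 of them pseudogenes. PSMD9 had the largest positive value of the chaperones, at 9.31 ± 0.264 CPM in control and 9.96 ± 0.365 CPM in IL17D libraries (SD, n = 3), with a log2 fold change of 0.096 (edgeR adjusted p = 0.848). The summed level of the 7 chaperones was 297, 294 and 292 CPM in control and 286, 287 and 280 CPM in IL17D libraries, a change of −3.43% with no overlap between the groups, and this sum was not tested. PSMD10 is part of the sum, with means of 69.9 CPM in control and 62.5 CPM in IL17D libraries. Gene by gene, 4 of the 7 chaperones had a log2 fold change above 0 and 3 below, with a median of 0.014.

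Among the activators, both subunits of PA28 had lower values in IL17D libraries. PSME1 was at 79.0, 77.3 and 79.8 CPM in control and 75.6, 72.1 and 74.9 CPM in IL17D libraries (log2 fold change −0.085, unadjusted p = 0.0983, edgeR adjusted p = 0.555). PSME2 was at 76.7, 75.3 and 71.1 CPM in control and 68.9, 63.2 and 70.6 CPM in IL17D libraries. The groups were apart in both genes, but neither passed the test after adjustment. For PSME2 the log2 fold change was −0.14 (95% interval −0.25 to −0.028, unadjusted p = 0.0154, edgeR adjusted p = 0.277 and 0.157 to 0.654 over the alternative analyses). Of its 31-base stretches 9.80% also occur in other genes, including 6 pseudogenes. PSME3, the nuclear activator PA28-gamma, had 273 ± 4.09 CPM in control and 274 ± 7.16 CPM in IL17D libraries (SD, n = 3), with a 95% interval of the log2 fold change from −0.066 to 0.077. PSME4, the activator PA200, had an interval from −0.073 to 0.087, and PSMF1, the inhibitor PI31, one from −0.082 to 0.087.

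**Figure D3:**
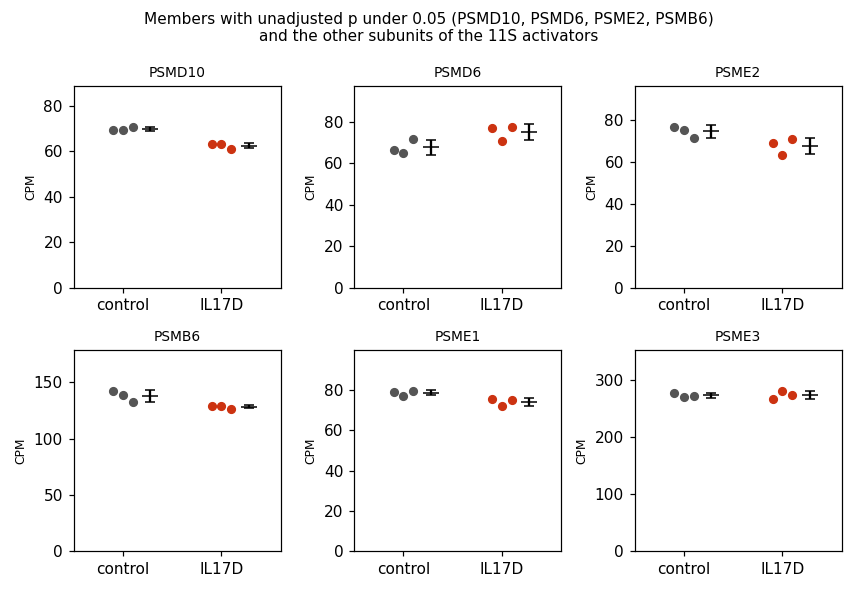
CPM in each library of the 4 genes with an unadjusted p under 0.05 (PSMD10, PSMD6, PSME2 and PSMB6) and of the activator subunits PSME1 and PSME3, with mean and SD of 3 libraries and axes from 0. The IL17D libraries lie below all control libraries in PSMD10, PSME2, PSMB6 and PSME1.

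The subunits of the particle are needed in fixed proportions, but their transcript levels per kilobase of gene length were far from equal. PSMA7 was highest, at a mean of 186 in control and 185 in IL17D libraries, while its ring partners PSMA2 and PSMA6 were at 0.743 and 0.508 in control and 0.782 and 0.593 in IL17D libraries. The 6 genes with at least 40% of their coding bases inside an exon of another annotated gene were PSMA1, PSMA2, PSMA6, PSMB10, PSMC1 and PSMD9, and this line was drawn after the values were seen. In PSMA2 97.1% of coding bases lay in the same-strand gene AC010132.3, in PSMA1 88.6% in AC018523.2 and in PSMA6 70.4% in AL121594.1, annotated genes that themselves had at most 12 counts in a library. PSMB10 shared 58.3% with AC040162.1, PSMD9 58.7% with AC069503.2 and PSMC1 47.7% with NRDE2 on the opposite strand.

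Among the tested structural subunits (alpha ring, non-catalytic and standard beta, ATPase and 19S non-ATPase), the 27 under this line had a mean of 998.5 to 5289 counts per library and a median level of 42.2 CPM per kilobase. The 4 over it, PSMA1, PSMA2, PSMA6 and PSMC1, had 55.8 to 656 counts and a median of 3.79 CPM per kilobase, with no overlap in counts. Their levels per kilobase did overlap, with a lowest value of 7.82 in the first set and a highest of 8.56 in the second. The fold between the medians was 11.1, and 7.20 per kilobase of coding bases. How the count handled reads that fall on 2 genes is not given in the sources used here, and its part in these low values was not tested. AC040162.1, the gene that overlaps PSMB10, had 34, 33 and 42 counts in control and 63, 52 and 48 counts in IL17D libraries (log2 fold change 0.57, edgeR adjusted p = 0.309). PSMB10 and this gene can share reads, so that the low level of PSMB10 and its part in the immunoproteasome share are uncertain.

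**Figure D4:**
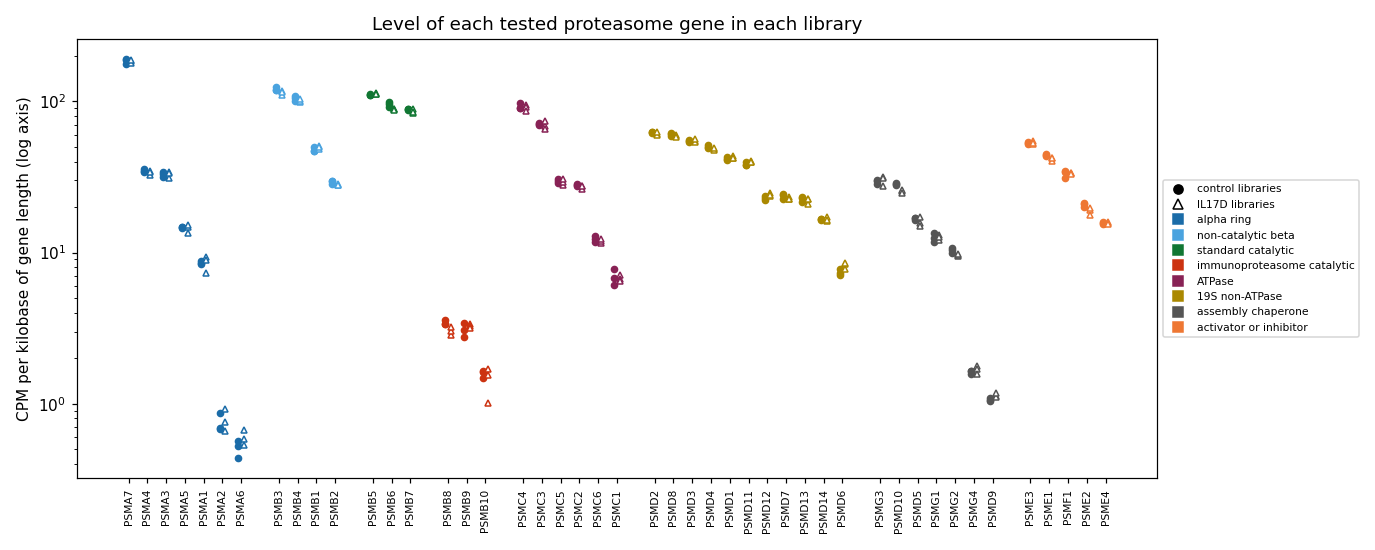
Level of each tested proteasome gene in each library, in CPM per kilobase of gene length on a log axis, grouped by role (filled circles for control, open triangles for IL17D). Levels run from 186 for PSMA7 down to 0.508 for PSMA6 (control means), and within each gene the 2 groups lie close together.

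**Figure D5:**
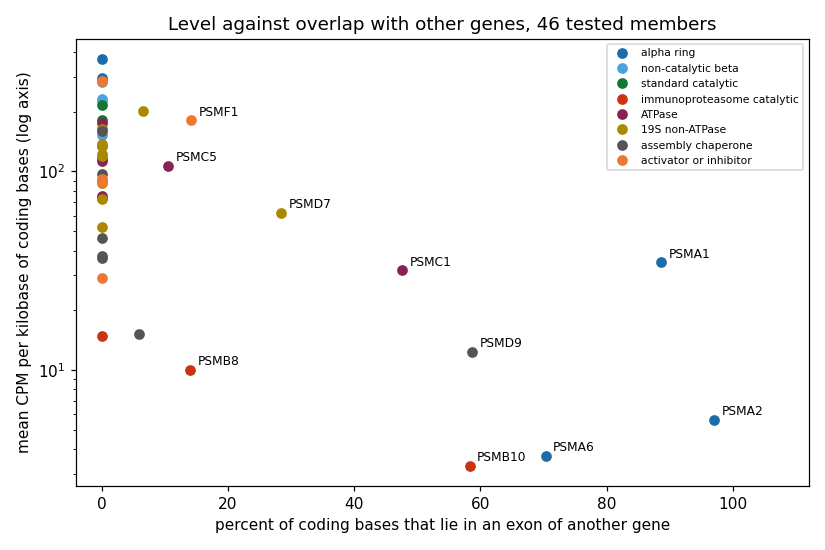
Mean CPM per kilobase of coding bases (log axis) against the percent of a gene's coding bases that lie in an exon of another annotated gene, for the 46 tested genes. The structural subunits with at least 40% shared bases are PSMA1, PSMA2, PSMA6 and PSMC1, with a median of 18.7 beside 135 for the other 27.

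Genes around the proteasome were read from the same fit. Of the proteins that bind or serve the particle, 19 were tested and 0 called, where 1.58% of all tested genes were. Their median log2 fold change was 0.030, with 5 of 19 below 0 beside 50.1% of all genes, and 2 were higher and 0 lower at an unadjusted p under 0.05, beside 5.59% and 5.99% of all genes. The smallest p there was that of RAD23B, a shuttle that brings ubiquitylated proteins to the cap, with 285 ± 12.1 CPM in control and 301 ± 7.62 CPM in IL17D libraries (SD, n = 3, log2 fold change 0.081, unadjusted p = 0.0332, edgeR adjusted p = 0.375). POMP, the maturation factor that closes the core, had a log2 fold change of 0.030 (edgeR adjusted p = 0.882). Among 6 ubiquitin genes 0 were called, with a median log2 fold change of −0.012 and 1 higher at an unadjusted p under 0.05.

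NFE2L1 (NRF1) is the factor that raises proteasome genes when the proteasome is blocked. Its own level was 359 ± 2.67 CPM in control and 359 ± 4.01 CPM in IL17D libraries (SD, n = 3), with a 95% interval of the log2 fold change from −0.066 to 0.066. In its pathway of 15 genes the median log2 fold change was 0.024, with 4 of 15 below 0 beside 50.1% of all genes. At an unadjusted p under 0.05 in edgeR, 3 were higher and 1 lower, beside 5.59% and 5.99% of all tested genes. After adjustment 1 of the 15 was called higher and 0 lower, beside 0.673% and 0.908% of all tested genes. This was MAFK, a small MAF protein that pairs with NFE2L1 and its relatives, at 323, 353 and 298 CPM in control and 365, 342 and 385 CPM in IL17D libraries. The groups overlapped, and the log2 fold change of 0.17 (edgeR adjusted p = 0.0395) lost its call with DESeq2 (adjusted p = 0.496), with total counts (edgeR adjusted p = 0.055) and without any one of 4 of the 6 libraries (edgeR adjusted p = 0.112 without control replicate 1, 0.205 without control replicate 3, 0.129 without IL17D replicate 1 and 0.343 without IL17D replicate 3). The log2 fold change was 0.17 with DESeq2, 0.16 with total counts, 0.16 without control replicate 1 and 0.17 without IL17D replicate 1, and smaller at 0.11 without control replicate 3 and 0.13 without IL17D replicate 3. The adjusted p of MAFK ranged from 0.00099 to 0.496 over the alternative analyses. The pathway kept its 1 gene called higher with the other gene filters, DESeq2 size factors, limma voom and the replicate block. It also did without control replicate 2 and without IL17D replicate 2.

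Of 26 genes of the interferon and MHC class I axis, which drives the immunoproteasome, 0 were called, with a median log2 fold change of −0.0016 and 4 lower and 2 higher at an unadjusted p under 0.05 (5.99% and 5.59% of all tested genes). B2M, the light chain of MHC class I, had the smallest p, at 161, 163 and 168 CPM in control and 150, 148 and 154 CPM in IL17D libraries. The groups did not overlap (log2 fold change −0.12, unadjusted p = 0.00461, edgeR adjusted p = 0.148). IRF1, a factor through which interferon-gamma acts on immunoproteasome genes, had a log2 fold change of 0.11 (edgeR adjusted p = 0.762). NLRC5, the activator of MHC class I genes, had −0.32 (95% interval −0.65 to 0.0068, edgeR adjusted p = 0.449).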

How the data were processed

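RNA-seq of 3 IL17D and 3 control libraries of A549 cells was analysed. The authors deposited raw read counts per gene, with no normalization and all samples in 1 table, of which 0 sample columns were left out and 0 rows named no gene. The aligner, the counter, its strand setting and its treatment of shared reads are not given in the sources used here. The submitters' processing notes name Bowtie2 and hg38 without their roles, and the methods and the labels name different sequencers. Of the genes listed, 58724 have GENCODE 29 coordinates on GRCh38, and the deposited gene length equals the union of exons for all 48 proteasome genes.

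Counts were filtered by edgeR's filterByExpr, scaled by TMM (factors 0.997 to 1.004) and compared by edgeR's quasi-likelihood test, two-sided, with Benjamini-Hochberg adjustment over 15754 genes and a threshold of 0.05. Tools were edgeR 4.0.16, limma 3.58.1 and DESeq2 1.42.0 in R 4.3.3, and pandas 2.3.3 and matplotlib 3.10.9 in Python 3.11.15. Steps were tested on simulated counts. Intervals at 95% come from the quasi-likelihood standard error.

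Named proteasome genes were all catalytic subunits, activators and the inhibitor, any called gene, and in each other role the largest rise, the largest fall and the smallest p. Of related genes, called ones, the smallest p of each list and a few fixed regulators were named, of which some are not reported here. The genes and lists were chosen with earlier results of these data known. PSMA7, PSMA1, PSMA2 and the overlapping genes were named after their values were seen. Alternatives were other gene filters (at least 1 count in any library, at least 10 in every library), DESeq2 size factors, total counts, DESeq2's Wald test, limma voom, the replicate number as a block, leaving out each library and, after seeing the data, levels per kilobase of coding bases. Protein sequences were not used here.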

Additional observations from a re-analysis of the deposited data

How the results depend on the processing

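The count of proteasome genes called was 0 in both directions under all alternatives, and their median log2 fold change stayed below 0, between −0.030 and −0.0092 when single libraries were left out (−0.0092 without control replicate 1, −0.013 without IL17D replicate 2). Control and IL17D libraries with the same replicate number did not deviate together (correlations of deviations 0.01, −0.0119 and −0.0151). This does not show whether such samples were handled together, which the sources do not say. With the replicate number as a block 0 proteasome genes were called and the median was −0.024. The NFE2L1 pathway count of genes called higher was 0 with total counts, 0 with DESeq2's Wald test and 0 to 1 when single libraries were left out, and that of genes called lower was 0 to 1, the 1 being SEL1L without control replicate 1 (edgeR adjusted p = 0.0349, 0.197 with all libraries), named after its values were seen. The fold between the median levels of subunits with little and much shared sequence was 7.20 per kilobase of coding bases. Among the genes named by rule, the following log2 fold changes turned sign, none of them called: PSMB10 to 0.045 without IL17D replicate 2 (range with single libraries left out −0.31 to 0.045), PSME3 to −0.0024 without control replicate 2 and −0.014 without IL17D replicate 2 (range up to 0.024), PSME4 to −0.0071 without IL17D replicate 2 (range up to 0.020), PSMF1 to −0.00059 with total counts, −0.046 without control replicate 3 and −0.0015 without IL17D replicate 1 (range up to 0.034), and NFE2L1 to −0.0022 with all genes of at least 1 count, −0.0030 with total counts, −6.33e-05 with the replicate block, −0.0046 without control replicate 1 and −0.0090 without IL17D replicate 2 (range up to 0.0070). Other members turned sign too. Without control replicate 1, 4 of 6 ATPases were below 0, beside 6 with all libraries. Without IL17D replicate 2, 2 of 7 alpha-ring genes were below 0, beside 4, and their median was 0.029. The 19S non-ATPase median was 0.013 without IL17D replicate 1. That of the assembly chaperones, 0.014 with all libraries, was −0.029 without control replicate 2. The causes were not tested. The difference in the immunoproteasome share ranged from −0.11 to 0.024 percentage points when single libraries were left out, turning above 0 without control replicate 2 and without IL17D replicate 2. With 3 libraries in a group, the 95% interval reached past −0.3 or 0.3 in 6 of the 46 genes tested, among them PSMB8, PSMB9 and PSMB10, so that log2 fold changes of this size are not excluded for the immunoproteasome subunits.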
